A study of Homo sapiens with 6 samples.

Results

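The genes of cholesterol and fatty acid synthesis were followed in H1 human embryonic stem cells with an S1344L change in DICER1, the enzyme that cuts mature microRNAs from their hairpin precursors. The set was a list of 31 symbols of enzymes and regulators of the sterol and fatty acid pathways, and all 31 were present among the 16199 genes of the count table. Of these, 17 are enzymes of sterol synthesis (7 of the mevalonate steps and 10 from squalene onwards), 5 control sterol-responsive transcription or move sterols, and 9 make fatty acids. RNA-seq had been done on 2 samples homozygous for DICER1 S1344L, 2 hemizygous for it and 2 of the wild type, all from the H1 line, with the mutant cells made by CRISPR-Cas9. The labels give no treatment or time, and they do not say whether a genotype is 1 clone or what the other DICER1 allele of the hemizygous cells is. They number the samples of each genotype 1 and 2 without saying what a number marks, nor whether the samples are separate cultures. A p-value here therefore sets a difference against the scatter of these particular samples, and that scatter may be technical.

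Cholesterol is built from acetyl-CoA through mevalonate, isoprenoids and squalene, and fatty acids are built from acetyl-CoA through malonyl-CoA. Both pathways are under sterol regulatory element-binding proteins (SREBPs), transcription factors held in the endoplasmic reticulum by SCAP and INSIG proteins while sterols are plentiful and released to the nucleus when sterols fall. SREBP-2, from SREBF2, acts mainly on sterol genes, and SREBP-1, from SREBF1, mainly on fatty acid genes. Dividing stem cells need both products for new membranes.

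The listed counts summed to 38164848 to 52924532 per sample. Levels are given in CPM, that is, counts after scaling of all libraries to the same size. The 8 stem cell markers of the marker list were all measured and summed to 8127 to 8556 CPM in homozygous, 8418 to 8874 CPM in hemizygous and 7535 to 7735 CPM in wild-type samples. Defining markers of other fates (PAX6 and SOX1 of neural cells, TBXT and EOMES of mesendoderm, SOX17 and FOXA2 of endoderm, CDX2 and GATA3 of trophoblast) were not analysed here. The 3 measured fibroblast markers summed to 622 and 667 CPM in homozygous 1 and 2, 808 and 698 CPM in hemizygous 1 and 2, and 845 and 775 CPM in wild type 1 and 2. DICER1 itself, whose RNA the point mutation need not change, had 129 and 118 CPM in homozygous 1 and 2, 118 and 96.4 CPM in hemizygous 1 and 2, and 169 and 126 CPM in wild type 1 and 2.

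The start regions of the genes show what the pathway members share at the sequence level. RefSeq windows on GRCh38.p14, from 250 bases before to 50 bases after an annotated start, were found for 27 of the 31 genes, and not for FASN, SQLE, ACAT2 and FDFT1. Both strands were searched for TCACNCCAC (a core form of the sterol regulatory element), CCAAT (the box bound by NF-Y), GGGCGG (the GC box bound by Sp1) and CACGTG (the E-box), and matches could overlap. A CCAAT box was present in 21 of the 27 genes (77.8%), compared with 42.6% of the 11412 measured genes that have a window and 39.7% of all 27305 genes with one. A GC box was present in 25 of 27 genes (92.6%), compared with 76.7% of the measured genes. An E-box was present in 5 of 27 genes (18.5%), compared with 12.1% of the measured genes. The sterol element core was present only in SREBF2 (1 of 27, 3.7%), compared with 1.5% of the measured genes, where it began 133 bases before the start. These matches are letters in a window and not mapped binding sites, and known sterol elements vary in sequence.

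Windows are shown for 5 genes: SREBF2, which holds the sterol element core and encodes SREBP-2 (chr22:41832855-41833154, plus strand), HMGCS1, INSIG1 and SCD, whose RNAs differed widely between samples (chr5:43313363-43313662, minus strand, chr7:155297628-155297927, plus strand, and chr10:100346983-100347282, plus strand), and PMVK, whose RNA did not follow them (chr1:154936670-154936969, minus strand). Capitals mark the sterol element core, the CCAAT box and the GC box in either orientation, and each sequence runs 5′ to 3′ on the gene's strand. HMGCS1 and SCD each hold 2 CCAAT boxes, SREBF2 and INSIG1 hold 1 and PMVK holds none. The box was also absent from the windows of CYP51A1, ELOVL6, FADS1, SCAP and SREBF1. Of the genes without it, CYP51A1, ELOVL6 and FADS1 were higher in the number 1 samples at an edgeR adjusted p under 0.05. PMVK, SCAP and SREBF1 were not. Genes without the box thus fell on both sides. Whether the box goes with the difference between numbers was not tested, and too few genes lack it to tell.
SREBF2: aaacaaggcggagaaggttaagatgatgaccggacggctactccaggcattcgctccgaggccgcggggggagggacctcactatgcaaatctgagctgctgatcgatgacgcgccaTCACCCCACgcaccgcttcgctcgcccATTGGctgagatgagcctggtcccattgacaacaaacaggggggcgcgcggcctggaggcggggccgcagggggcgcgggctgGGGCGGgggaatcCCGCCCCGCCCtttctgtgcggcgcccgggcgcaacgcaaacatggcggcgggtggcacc
HMGCS1: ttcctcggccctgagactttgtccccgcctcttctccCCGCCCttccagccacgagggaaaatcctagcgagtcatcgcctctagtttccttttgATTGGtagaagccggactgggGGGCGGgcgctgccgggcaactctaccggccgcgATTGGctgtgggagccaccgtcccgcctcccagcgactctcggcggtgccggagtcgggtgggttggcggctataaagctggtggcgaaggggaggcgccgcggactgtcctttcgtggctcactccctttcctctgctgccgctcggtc
INSIG1: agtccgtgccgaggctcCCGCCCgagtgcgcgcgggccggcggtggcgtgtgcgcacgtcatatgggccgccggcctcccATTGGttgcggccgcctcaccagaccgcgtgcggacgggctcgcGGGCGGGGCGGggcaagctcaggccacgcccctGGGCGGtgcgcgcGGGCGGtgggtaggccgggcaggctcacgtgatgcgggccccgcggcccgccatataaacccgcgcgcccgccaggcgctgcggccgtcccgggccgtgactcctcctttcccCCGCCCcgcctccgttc
SCD: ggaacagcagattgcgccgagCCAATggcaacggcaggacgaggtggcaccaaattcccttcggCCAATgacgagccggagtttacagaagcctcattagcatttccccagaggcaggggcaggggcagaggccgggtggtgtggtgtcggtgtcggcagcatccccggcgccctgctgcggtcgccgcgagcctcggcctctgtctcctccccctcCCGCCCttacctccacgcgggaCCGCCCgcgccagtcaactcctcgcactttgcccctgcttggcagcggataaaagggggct
PMVK: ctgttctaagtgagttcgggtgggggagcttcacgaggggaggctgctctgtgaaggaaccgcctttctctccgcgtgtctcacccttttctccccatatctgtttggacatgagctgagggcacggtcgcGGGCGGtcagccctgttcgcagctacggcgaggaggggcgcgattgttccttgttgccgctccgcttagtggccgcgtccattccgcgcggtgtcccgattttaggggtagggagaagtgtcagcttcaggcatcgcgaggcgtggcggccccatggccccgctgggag

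Per kilobase of annotated exon (GENCODE release 29), fatty acid enzymes were the most abundant RNAs of the set. SCD, the desaturase that makes oleate (chr10:100347124-100364834, plus strand), had 356 and 213 CPM per kb in homozygous 1 and 2, 460 and 237 CPM per kb in hemizygous 1 and 2, and 440.1 and 256 CPM per kb in wild type 1 and 2. FASN, the fatty acid synthase (chr17:82078333-82098332, minus strand), followed with 75.3 to 178 CPM per kb over the 6 samples. ACLY, which makes cytosolic acetyl-CoA from citrate, had 87.1 to 131 CPM per kb, a range that overlaps that of FASN. The highest sterol gene was HMGCS1, which makes HMG-CoA for the mevalonate pathway (chr5:43289395-43313512, minus strand), with 59.2 to 147 CPM per kb. At the other end, FDFT1 (squalene synthase) had 0.403 to 0.575 CPM per kb, ACACA (the acetyl-CoA carboxylase that makes malonyl-CoA) 0.129 to 1.35 CPM per kb and CYP51A1 (lanosterol demethylase) 0.543 to 1.90 CPM per kb. These 3 enzymes of essential steps stood far below their neighbours in the pathway. Their rows held 82 to 155 counts for FDFT1, 68 to 913 counts for ACACA and 79 to 354 counts for CYP51A1 per sample, and 83.2% of the exon bases of CYP51A1 are shared with annotated neighbours, and how reads were assigned there was not tested. The libraries do not keep strand, so CYP51A1 and ACAT2, 52.3% of whose exon bases overlap genes of the opposite strand, are uncertain. For the other 29 genes the overlapped share was at most 18.6%.

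**Figure D1:**
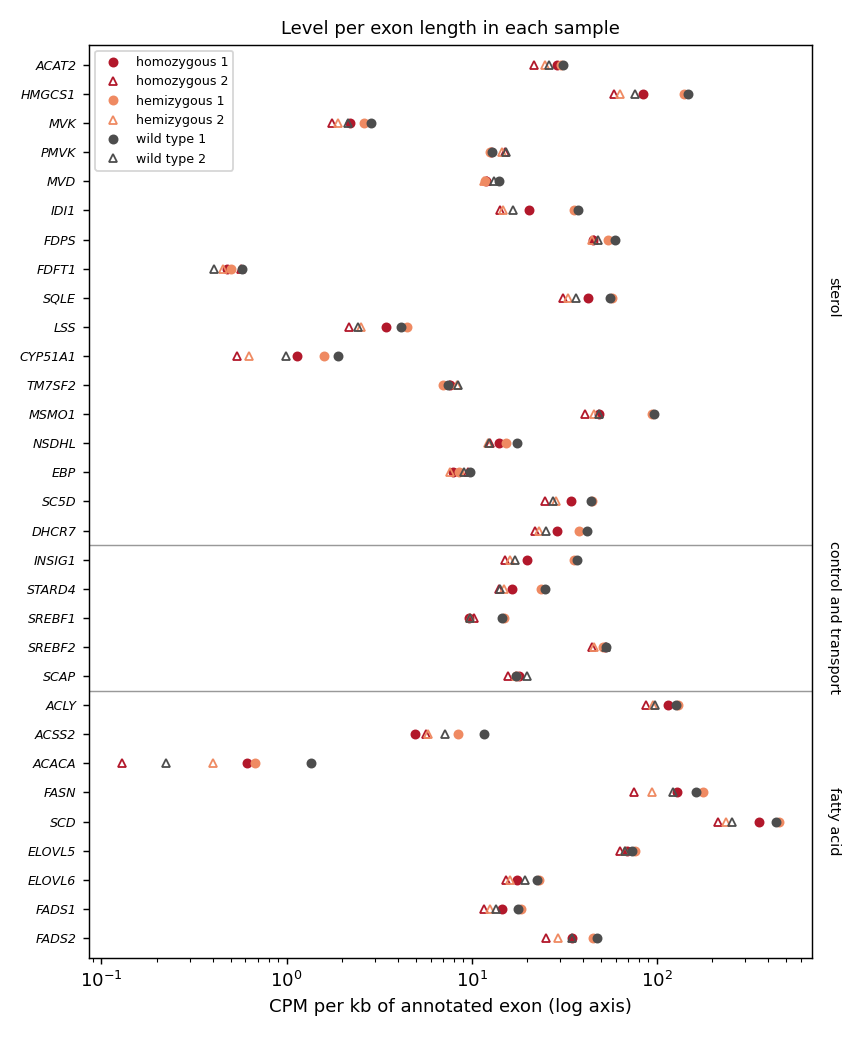
Level of each of the 31 genes in CPM per kb of annotated exon on a log axis, 1 symbol per sample, filled circles for number 1 and open triangles for number 2, coloured by genotype and grouped into sterol, control and transport, and fatty acid genes. SCD is highest, at 213 to 460 CPM per kb, and FDFT1, ACACA and CYP51A1 lie lowest.

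The samples with number 1 stood apart from those with number 2 in these pathways, and most genes of both branches were higher in number 1 whichever the genotype. In a model with genotype and number (edgeR's quasi-likelihood test, adjusted over all genes), 20 of 31 members (64.5%) were called, where 20.5% of all genes were. All 20 were higher in number 1, while over all genes 1945 were higher and 1377 lower. They comprised 11 of 17 sterol enzymes, 7 of 9 fatty acid enzymes and 2 of 5 control and transport genes. The median log2 difference, number 1 over number 2, was 0.41 for the sterol branch and 0.43 for the fatty acid branch, values close to each other, and -0.0024 for all genes. Number 1 exceeded number 2 in each of the 3 genotypes for 21 of 31 members (67.7%), compared with 29.9% of all genes. For 18 members all 3 number 1 samples lay above all 3 number 2 samples (20.9% of all genes did so), and for PMVK all 3 lay below (18.7% of all genes).

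The call depended on which libraries were in the fit. Members called numbered 1 of 31 without the hemizygous samples, 0 without the wild-type samples and 23 without the homozygous samples. Over all genes, 2, 0 and 6252 were called in that order, so calls fell and rose over all genes as well. Leaving out 1 sample at a time also changed the calls, among the members and over all genes. The 3 fits with 2 genotypes rest on 4 samples. The median difference moved less, between 0.36 and 0.45 for the sterol branch and between 0.37 and 0.54 for the fatty acid branch when 1 sample was left out.

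**Figure D2:**
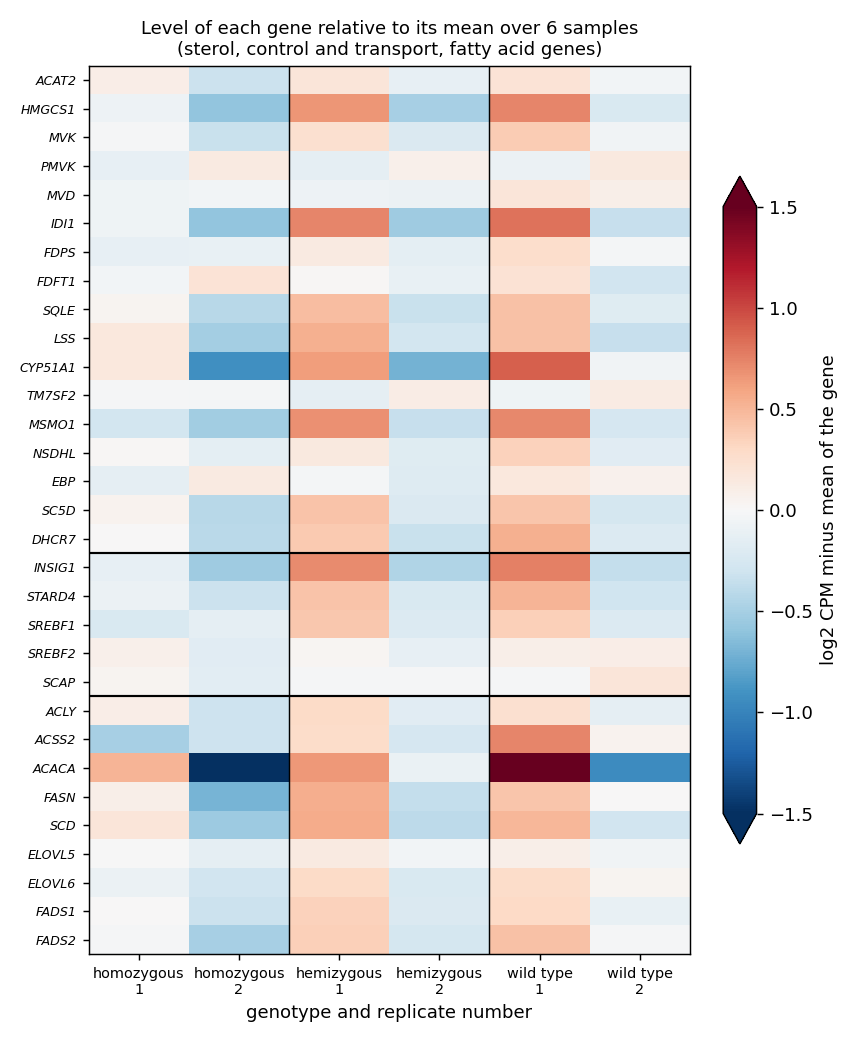
Level of each of the 31 genes (rows, grouped into sterol, control and transport, and fatty acid genes) in each of the 6 samples (columns), as log2 CPM minus the mean of that gene over the samples, red for above and blue for below, with colours ending at 1.5 in either direction. Hemizygous 1 and wild type 1 are red in most rows and the number 2 columns mostly blue, while homozygous 1 lies near the mean of many genes.

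In the mevalonate steps, HMGCS1 and IDI1 differed most. HMGCS1 had 396 and 278 CPM in homozygous 1 and 2, 661 and 297 CPM in hemizygous 1 and 2, and 693 and 357 CPM in wild type 1 and 2. Its levels were highest in hemizygous 1 and wild type 1, and all 3 number 1 samples lay above all number 2 samples. The log2 difference was 0.87 ± 0.12 (SE, edgeR adjusted p = 0.0120), a 1.83-fold rise. IDI1, which isomerizes isopentenyl diphosphate, had 89.0 and 61.8 CPM in homozygous 1 and 2, 154 and 64.1 CPM in hemizygous 1 and 2, and 163 and 73.1 CPM in wild type 1 and 2. It showed the same order of samples, with a log2 difference of 0.99 ± 0.14 (SE, edgeR adjusted p = 0.0122). MVK, mevalonate kinase, rose by 0.41 ± 0.10 on the log2 scale in number 1 (edgeR adjusted p = 0.0294). ACAT2, the cytosolic acetoacetyl-CoA thiolase that begins the pathway, rose by 0.32 ± 0.08 on the log2 scale (edgeR adjusted p = 0.0285).

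Another 3 genes of the mevalonate steps were not called. PMVK, phosphomevalonate kinase, had 16.2 and 19.3 CPM in homozygous 1 and 2, 16.1 and 18.6 CPM in hemizygous 1 and 2, and 16.6 and 19.6 CPM in wild type 1 and 2. It was the only member with number 1 below number 2 in all 3 genotypes, and its level barely differed between genotypes. MVD, the decarboxylase that ends the mevalonate steps, had 56.2 and 57.1 CPM in homozygous 1 and 2, 55.6 and 54.9 CPM in hemizygous 1 and 2, and 66.2 and 62.0 CPM in wild type 1 and 2, and both wild-type samples were highest. FDPS, farnesyl diphosphate synthase, ranged from 166 to 220.3 CPM and had number 1 above number 2 except among homozygous samples, where the log2 difference was -0.01.

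From squalene onwards, 7 of 10 enzymes were called higher in number 1. SQLE, the squalene epoxidase that is a rate-limiting step, had 184 and 134 CPM in homozygous 1 and 2, 247 and 142 CPM in hemizygous 1 and 2, and 242 and 157 CPM in wild type 1 and 2. The numbers did not overlap, and the log2 difference was 0.63 ± 0.09 (SE, edgeR adjusted p = 0.0120). LSS, which cyclizes squalene epoxide to lanosterol, had 24.8 and 15.7 CPM in homozygous 1 and 2, 32.2 and 18.4 CPM in hemizygous 1 and 2, and 30.1 and 17.6 CPM in wild type 1 and 2. This gave a log2 difference of 0.75 ± 0.08 (SE, edgeR adjusted p = 0.0120), much alike in each genotype. MSMO1, a C4-demethylating oxidase, had 140.3 and 118 CPM in homozygous 1 and 2, 272 and 133 CPM in hemizygous 1 and 2, and 279 and 142 CPM in wild type 1 and 2. Hemizygous 1 and wild type 1 were high and the other 4 samples lay close together, including homozygous 1, and the log2 difference was 0.76 ± 0.15 (SE, edgeR adjusted p = 0.0201).

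CYP51A1, at low counts, had 4.10 and 1.94 CPM in homozygous 1 and 2, 5.68 and 2.24 CPM in hemizygous 1 and 2, and 6.83 and 3.56 CPM in wild type 1 and 2, a log2 difference of 1.12 ± 0.16 (SE, edgeR adjusted p = 0.0122). SC5D, a sterol desaturase late in the pathway, rose by 0.60 ± 0.08 on the log2 scale (edgeR adjusted p = 0.0120). DHCR7, which makes cholesterol from its immediate precursor, rose by 0.62 ± 0.09 (edgeR adjusted p = 0.0122). NSDHL, a partner of MSMO1 in C4 demethylation, rose by 0.34 ± 0.09 (edgeR adjusted p = 0.0438). FDFT1, TM7SF2 (a sterol reductase) and EBP (a sterol isomerase) were not called. EBP had 19.2 and 23.1 CPM in homozygous 1 and 2, 20.7 and 18.4 CPM in hemizygous 1 and 2, and 23.5 and 22.0 CPM in wild type 1 and 2, so its direction differed between genotypes.

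Among control and transport genes, INSIG1 and STARD4 were called and the genes of the SREBPs and SCAP were not. INSIG1, which retains SCAP in the endoplasmic reticulum and is itself an SREBP target (chr7:155297776-155310235, plus strand), had 73.1 and 55.0 CPM in homozygous 1 and 2, 130.1 and 58.6 CPM in hemizygous 1 and 2, and 135 and 62.4 CPM in wild type 1 and 2. Its log2 difference was 0.89 ± 0.15 (SE, edgeR adjusted p = 0.0139), with homozygous 1 again far below the other number 1 samples. STARD4, a cytosolic sterol carrier, had 94.4 and 79.9 CPM in homozygous 1 and 2, 135 and 85.4 CPM in hemizygous 1 and 2, and 142 and 81.1 CPM in wild type 1 and 2. The numbers did not overlap, and the log2 difference was 0.57 ± 0.11 (SE, edgeR adjusted p = 0.0202). SREBF1 had 77.6 and 83.0 CPM in homozygous 1 and 2, 120.3 and 79.1 CPM in hemizygous 1 and 2, and 117 and 79.0 CPM in wild type 1 and 2, so 4 samples lay close together and hemizygous 1 and wild type 1 stood above them. It was not called by edgeR and was called by DESeq2, which called 21 members in all and 21.3% of the genes it gave an adjusted p. SREBF2 stayed between 336 and 405 CPM in all samples. SCAP, the sterol sensor that escorts SREBPs, stayed between 101 and 128 CPM.

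In the fatty acid branch, all 9 enzymes had a positive difference and ELOVL5 and ACSS2 alone were not called. SCD had 1906.5 and 1144 CPM in homozygous 1 and 2, 2465 and 1273 CPM in hemizygous 1 and 2, and 2359.6 and 1372 CPM in wild type 1 and 2. The numbers did not overlap, and the log2 difference was 0.82 ± 0.09 (SE, edgeR adjusted p = 0.0120), a 1.77-fold rise. FASN had 1213 and 705 CPM in homozygous 1 and 2, 1663 and 887 CPM in hemizygous 1 and 2, and 1525 and 1147 CPM in wild type 1 and 2. Its numbers did not overlap either, and the log2 difference was 0.70 ± 0.11 (SE, edgeR adjusted p = 0.0130). ACLY rose by 0.41 ± 0.07 on the log2 scale (edgeR adjusted p = 0.0164). Of the desaturases of polyunsaturated fatty acids, FADS1 rose by 0.43 ± 0.08 (edgeR adjusted p = 0.0164) and FADS2 by 0.52 ± 0.08 (edgeR adjusted p = 0.0124). ELOVL6, the elongase that lengthens palmitate, rose by 0.32 ± 0.09 (edgeR adjusted p = 0.0449).

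ACACA had the largest difference and the widest scatter of the set. It had 7.98 and 1.67 CPM in homozygous 1 and 2, 8.81 and 5.24 CPM in hemizygous 1 and 2, and 17.6 and 2.92 CPM in wild type 1 and 2. The log2 difference was 1.83 ± 0.34 (SE, edgeR adjusted p = 0.0171). ACSS2, which makes acetyl-CoA from acetate, had 26.5 and 30.4 CPM in homozygous 1 and 2, 45.4 and 31.4 CPM in hemizygous 1 and 2, and 62.5 and 38.8 CPM in wild type 1 and 2. It was the only fatty acid gene with number 1 below number 2 in a genotype, the homozygous one. ELOVL5, an elongase of polyunsaturated fatty acids, stayed within 242 to 290 CPM, with number 1 above number 2 in each genotype.

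**Figure D3:**
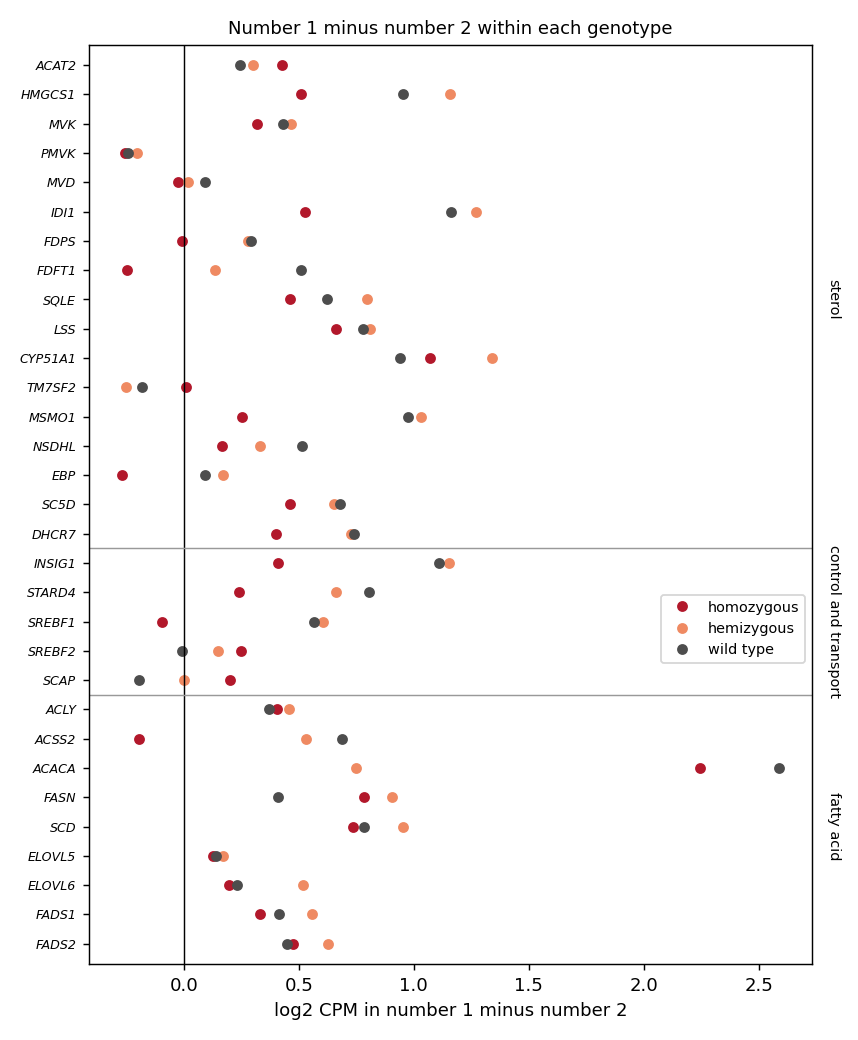
Log2 CPM in number 1 minus number 2 for each of the 31 genes, 1 point per genotype, grouped into sterol, control and transport, and fatty acid genes. Most points lie right of 0, PMVK lies left of 0 in all 3 genotypes, and the homozygous points of HMGCS1, IDI1, MSMO1, INSIG1 and STARD4 lie nearer 0 than those of the other genotypes.

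The size of the difference between numbers varied with genotype. The median over the 31 genes of the log2 difference, number 1 minus number 2, was 0.32 in homozygous, 0.56 in hemizygous and 0.51 in wild-type samples, and 24, 29 and 27 of the 31 were above 0 in that order. With 1 sample of each number per genotype, these differences were not tested against each other. For the sterol enzymes the medians were 0.32 in homozygous, 0.47 in hemizygous and 0.51 in wild-type samples. For the fatty acid enzymes they were 0.40 in homozygous, 0.56 in hemizygous and 0.41 in wild-type samples. The median share of a member's variance that went with number was 69.7%, and with genotype 20.4%, where the medians over all genes were 44.3% and 25.4%.

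Other measures moved with number or with single samples. Ribosomal protein genes took 5.42%, 4.21% and 4.84% of counts in number 1 of the homozygous, hemizygous and wild-type cells, and 6.29%, 5.98% and 5.60% in number 2. The 14 measured genes of a hypoxia and glycolysis list summed to 3885 CPM in homozygous 1 and to 2108 to 2365 CPM in the other 5 samples. Of that list, 3 genes (21.4%) were called higher in number 1 (edgeR) and none lower, where 12% of all genes were called higher. Among 9 measured markers of other cell types, COL1A1 of fibroblasts and AFP of endoderm were called higher in number 1. Of all genes, 12% were called higher. The 3 measured fibroblast markers did not move together, as 2 were higher and 1 was lower in number 1. The only measured trophoblast marker had a log2 difference of -0.35 and was not called. COL1A1 had 190.2 and 179 CPM in homozygous 1 and 2, 324 and 213 CPM in hemizygous 1 and 2, and 285 and 184 CPM in wild type 1 and 2, a log2 difference of 0.44 ± 0.12 (SE, edgeR adjusted p = 0.0388). AFP had 1.30 and 1.11 CPM in homozygous 1 and 2, 4.41 and 1.025 CPM in hemizygous 1 and 2, and 4.03 and 0.742 CPM in wild type 1 and 2, a log2 difference of 1.64 ± 0.40 (SE, edgeR adjusted p = 0.0319). Like HMGCS1 and INSIG1, both were highest in hemizygous 1 and wild type 1. The part of these in the differences of the sterol and fatty acid genes was not tested. In bulk RNA, fewer cells of a type and less RNA per cell cannot be told apart.

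Genes next to the set in SREBP control showed the same order of numbers. All 12 measured genes of a list of other SREBP regulators had a positive difference, where 49.8% of all genes did, with a median of 0.25, and 5 were called higher in number 1 (edgeR), where 12% of all genes were. MBTPS2, the site-2 protease that frees SREBPs, had 15.6 and 9.75 CPM in homozygous 1 and 2, 20.3 and 12.4 CPM in hemizygous 1 and 2, and 19.9 and 13.4 CPM in wild type 1 and 2, a log2 difference of 0.65 ± 0.09 (edgeR adjusted p = 0.0122). SPRING1, a partner in SREBP activation, rose by 0.42 ± 0.08 (edgeR adjusted p = 0.0184). ERLIN2 and RNF145, both linked to the SCAP and INSIG proteins, rose by 0.54 ± 0.08 (edgeR adjusted p = 0.0122) and by 0.43 ± 0.08 (edgeR adjusted p = 0.0191). GGPS1, which leads isoprenoids away to geranylgeranyl diphosphate, fell by 0.33 ± 0.09 on the log2 scale (edgeR adjusted p = 0.0483).

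Homozygous cells had lower levels than wild-type cells for nearly all of the genes, and no member passed the test unless samples of the same number were compared, where DESeq2 called 5. Of the 31 members, 30 had a negative log2 difference, homozygous over wild type, where 50.7% of all genes did. The median was -0.29 over the 31 members, -0.25 in the sterol branch and -0.34 in the fatty acid branch, against -0.0034 over all genes. Of the 31, edgeR called 0, as it did among all genes (0% of 16199), with 435 genes and 1 member, ACSS2, at an unadjusted p under 0.05 (1.50% of all genes were lower at that p). DESeq2 called 10 genes and limma-voom 0, with no member among them. Both homozygous samples lay below both wild-type samples for 7 members, MVD, FDPS, MSMO1, SREBF2, ACSS2, ELOVL6 and FADS2, where 13.6% of all genes did so, and for no member did both lie above. The shift shrank most without wild type 1, to 18 members lower and 13 higher. The branch medians were then -0.05 for sterol and -0.03 for fatty acid genes. That fit sets both homozygous numbers against wild type 2 alone, so genotype is mixed with number in it. Between homozygous 2 and wild type 2, 27 of 31 members were lower, where 51.5% of all genes were. The median log2 difference of that pair was -0.21. When any other single sample was left out, 27 to 30 members were lower.

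ACSS2 had the lowest unadjusted p of the set in the edgeR fit without a block. Its 26.5 and 30.4 CPM in homozygous cells lay below the 62.5 and 38.8 CPM in wild-type cells, a log2 difference of -0.84 ± 0.27 (SE, edgeR adjusted p = 0.9998). That difference lay mainly in number 1, at -1.24 on the log2 scale, against -0.35 in number 2. MSMO1 differed by -0.70 ± 0.41, IDI1 by -0.65 ± 0.50, HMGCS1 by -0.64 ± 0.45 and INSIG1 by -0.62 ± 0.46 (SE, edgeR adjusted p = 0.9998 for each). For these 4 genes the difference lay mainly in number 1, where homozygous 1 differed from wild type 1 by -0.99 to -0.81 on the log2 scale, against -0.36 to -0.18 in number 2. FASN differed by -0.48 ± 0.36, CYP51A1 by -0.78 ± 0.57 and ACACA by -1.09 ± 0.93 (SE, edgeR adjusted p = 0.9998 for each). The errors were large beside the differences for these genes, as they were for IDI1, HMGCS1 and INSIG1.

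Comparing samples of the same number left a narrower spread. With the replicate number as a block, edgeR again called 0 members and 0 genes, and the lowest adjusted p of a member was 0.316, for FADS2. At an unadjusted p under 0.05 in that fit, 16 members were lower, 8 sterol enzymes, 7 fatty acid enzymes and INSIG1, where 6.78% of all genes were. DESeq2 with the same block called 126 genes, 79 of them lower in homozygous cells (0.577% of those given an adjusted p), and 5 of the 79 were members. These were FADS2 at -0.47 ± 0.11 (DESeq2 adjusted p = 0.00785), ACSS2 at -0.79 ± 0.19 (DESeq2 adjusted p = 0.0103), FASN at -0.53 ± 0.13 (DESeq2 adjusted p = 0.0144), HMGCS1 at -0.58 ± 0.15 (DESeq2 adjusted p = 0.0152) and MSMO1 at -0.61 ± 0.17 (DESeq2 adjusted p = 0.0327). FADS2 had 385 and 277 CPM in homozygous cells, against 526 and 386 CPM in wild-type cells and differed by -0.45 on the log2 scale in number 1 and by -0.48 in number 2. When samples of the same number were compared, all 9 fatty acid enzymes were lower in homozygous cells in both numbers. These 5 genes were named after their values were seen.

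**Figure D4:**
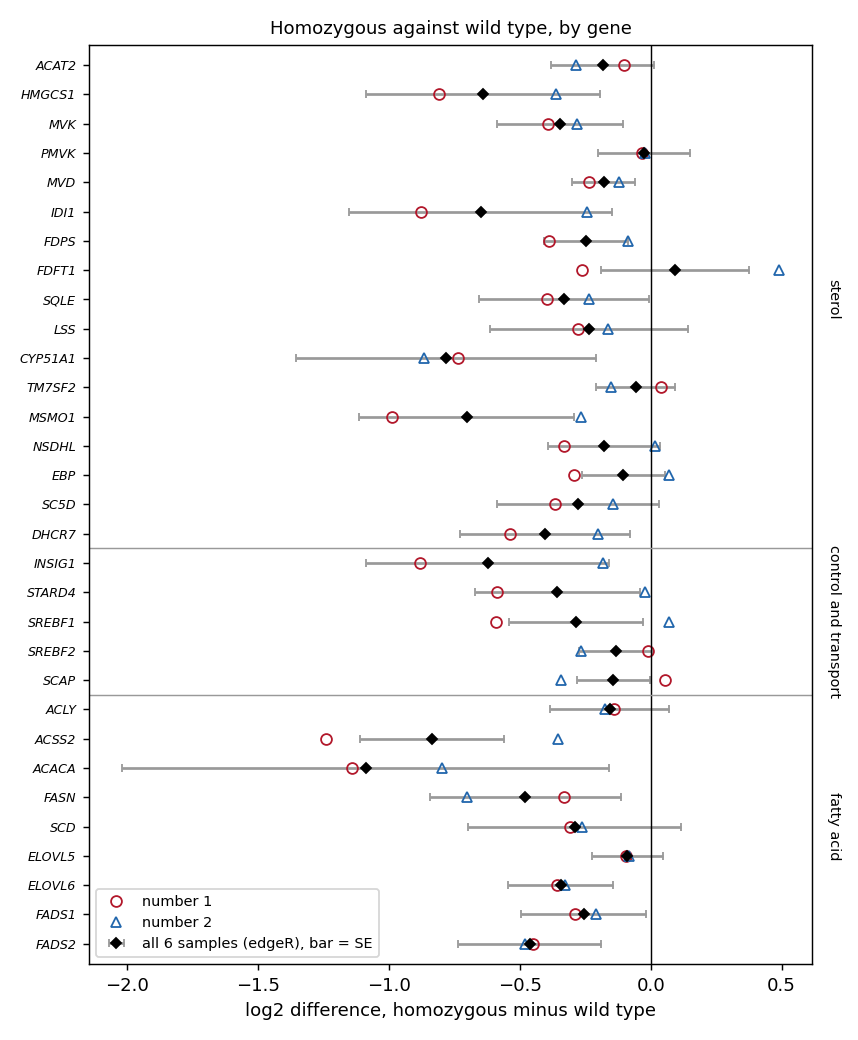
Log2 difference, homozygous minus wild type, for each of the 31 genes. Diamonds with bars are the edgeR estimate and its SE over all samples, open circles the difference between the number 1 samples and open triangles that between the number 2 samples. All 9 fatty acid genes lie left of 0 in both numbers, while FDFT1 has the only positive estimate.

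Hemizygous cells differed little from wild-type cells, with which homozygous cells were also compared. Of 31 members 25 had a negative log2 difference, hemizygous over wild type, with a median of -0.07, and 50.9% of all genes were negative. In edgeR 0 members and 0 of all genes (0%) were called, with 0 members and 141 genes at an unadjusted p under 0.05, and DESeq2 called 7 genes, none a member. Both hemizygous samples lay below both wild-type samples for MVD, EBP, SREBF2 and SCAP, where 9.21% of all genes did so. ACSS2 had 45.4 and 31.4 CPM in hemizygous cells and 62.5 and 38.8 CPM in wild-type cells, a log2 difference of -0.40 ± 0.27 (SE, edgeR adjusted p = 1.00). MVD differed by -0.21 ± 0.12 and EBP by -0.22 ± 0.16 (SE, edgeR adjusted p = 1.00 for each). ACACA had the largest estimate, and it and CYP51A1 had large errors, -0.55 ± 0.92 for ACACA and -0.40 ± 0.57 for CYP51A1 (SE, edgeR adjusted p = 1.00 for each). MVK, FADS2 and DHCR7 differed by -0.15 ± 0.24, -0.15 ± 0.27 and -0.14 ± 0.32 (SE, edgeR adjusted p = 1.00 for each). Without wild type 1 the members turned to 24 higher, and without hemizygous 2 to 23 higher. Each of these fits leaves a genotype with a single number, so genotype is mixed with number in it. Within number 1, 21 of 31 members were lower in hemizygous cells, where 50.8% of all genes were. Within number 2, 24 of 31 members were lower, where 51% of all genes were.

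Between the mutants, homozygous cells had the lower level for 26 of 31 members, with a median log2 difference, homozygous over hemizygous, of -0.26, where 50.1% of all genes were lower. All 9 fatty acid enzymes were lower, also within each number, and 13 of 17 sterol enzymes were. In edgeR 0 members and 0 of all genes (0%) were called, with 0 members and 124 genes at an unadjusted p under 0.05, and DESeq2 called 10 genes, none a member. The groups were apart without overlap for ACSS2, lower in homozygous cells (10.4% of all genes), and for MVD, higher in them (11.0% of all genes). MSMO1 had the largest estimate, -0.65 ± 0.41 (SE, edgeR adjusted p = 0.999), from 140.3 and 118 CPM in homozygous and 272 and 133 CPM in hemizygous cells. INSIG1, IDI1, HMGCS1 and ACACA followed at -0.56 ± 0.46, -0.53 ± 0.50, -0.51 ± 0.45 and -0.53 ± 0.93 (SE, edgeR adjusted p = 0.999 for each). ACSS2, FASN and CYP51A1 differed by -0.43 ± 0.27, -0.41 ± 0.36 and -0.38 ± 0.57 (SE, edgeR adjusted p = 0.999 for each). Without hemizygous 1 the order turned, to 24 members higher in homozygous cells. That fit sets both homozygous numbers against hemizygous 2 alone, so genotype is mixed with number in it. Between homozygous 2 and hemizygous 2, 24 of 31 members were lower in homozygous cells, where 53.6% of all genes were. The median log2 difference of that pair was -0.09.

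As groups, sterol and fatty acid genes changed side by side. The mean log2 CPM of the 17 sterol enzymes was 5.53 and 5.27 in homozygous 1 and 2, 5.84 and 5.31 for hemizygous 1 and 2, and 5.94 and 5.44 in wild type 1 and 2. That of the 9 fatty acid enzymes was 7.66 and 7.10 in homozygous 1 and 2, 8.01 and 7.41 for hemizygous 1 and 2, and 8.15 and 7.47 in wild type 1 and 2. Number 1 was above number 2 in each genotype for both branches, and within each number the mean was highest in wild type and lowest in homozygous cells. For fatty acid genes the order of hemizygous 1 and wild type 1 rested on ACACA and ACSS2, which differed by -0.997 and -0.46 on the log2 scale: 6 of the 9 enzymes were higher in hemizygous 1, with a median difference of 0.040, and the 9 summed to 6011 CPM in hemizygous 1, against 5784 CPM in wild type 1. The sterol mean minus the fatty acid mean was -2.13 and -1.83 in homozygous 1 and 2, -2.17 and -2.09 for hemizygous 1 and 2, and -2.20 and -2.04 in wild type 1 and 2. Homozygous 2 had the narrowest gap, with ACACA at 1.67 CPM, its lowest level, among the fatty acid genes. The 31 genes together took 0.693% and 0.514% of counts in homozygous 1 and 2, 0.886% and 0.566% for hemizygous 1 and 2, and 0.889% and 0.638% in wild type 1 and 2.

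**Figure D5:**
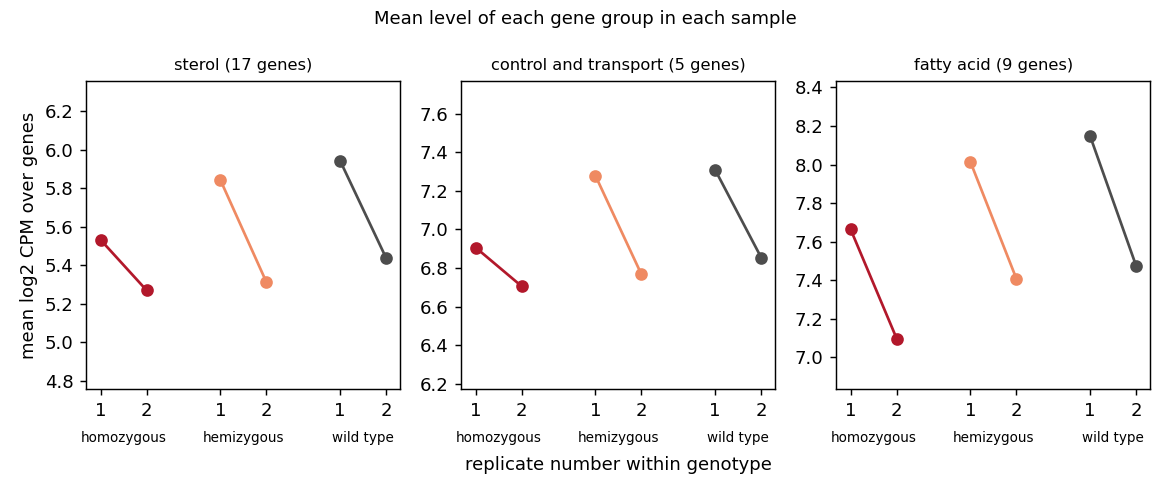
Mean log2 CPM over the 17 sterol enzymes, the 5 control and transport genes and the 9 fatty acid enzymes in each sample, with a line joining numbers 1 and 2 of a genotype; each panel spans the same range on its axis. Number 1 lies above number 2 in every genotype, and homozygous 1 lies below the other number 1 samples in all 3 panels.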

How the data were processed

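RNA-seq was done on total RNA, extracted with Trizol, from H1 cells with the TruSeq RNA Library Prep Kit v2, per the labels' protocols. That kit does not keep strand. The submitters' processing notes name cutadapt, HISAT2 and hg38 without versions. The counting program and its annotation are not stated there. The authors deposited raw counts per gene, 16199 genes in 6 samples, whole numbers with no normalization. Genes without a row were not analysed here.

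Groups came from the sample titles. The 31 members, the gene lists and the tests were chosen with earlier results of these data known. Counts were tested over all genes with edgeR 4.0.16 in R 4.3.3: TMM scaling, filterByExpr by genotype (0 genes removed), the quasi-likelihood test on all 6 samples with genotype as the only term (3 residual degrees of freedom), and Benjamini-Hochberg adjusted p under 0.05. The comparison of numbers added the replicate number to that model (2 residual degrees of freedom). CPM are TMM-scaled with a prior count of 0.5 on log scales. Alternatives were DESeq2 1.42.0, limma-voom (limma 3.58.1), median-of-ratios size factors, no filter and a filter of 1 CPM in 4 samples, the 4 samples of a pair of genotypes, and leaving out each sample. The scripts were tested on simulated data. Annotation, promoters and figures used Python 3.11.15, pandas 2.3.3 and matplotlib 3.10.9.

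After removal of genotype means, samples of the same number deviated together over all genes (r = 0.472 for homozygous and hemizygous, 0.354 for homozygous and wild type, 0.736 for hemizygous and wild type). On this basis same-numbered samples were taken as paired, and each genotype comparison was refitted with a replicate block, although 2 numbers are thin evidence for pairing. Libraries differed by a chi-square per degree of freedom of 11.5 to 97.4, so none was a copy. By that measure homozygous 1 lay nearer hemizygous 2 (28.4) and wild type 2 (28.7) than hemizygous 1 (55.7) and wild type 1 (58.3). Hemizygous 1 and wild type 1 lay near each other (16.5). The pairing of homozygous 1 with the other number 1 samples is therefore uncertain. Counts from reads without molecular identifiers carry more error than counting alone.

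Statistics are given for the 8 members with the largest absolute log2 difference in each comparison and for members past the threshold. Genes of other lists are named only where called, at most 4 a list. The list of other sterol synthesis genes is not reported here in full.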

Additional observations from a re-analysis of the deposited data

Results flagged for a closer look

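ACACA went in opposite directions in the 2 numbers when hemizygous cells were set against wild-type cells. The log2 difference was -0.997 within number 1 (8.81 CPM in hemizygous 1 against 17.6 CPM in wild type 1) and 0.84 within number 2 (5.24 CPM in hemizygous 2 against 2.92 CPM in wild type 2), so the difference between the numbers was -1.84. It rests on 1 sample each and was not tested. No other member with statistics in a comparison changed sign between the numbers, nor between genotypes in the comparison of numbers.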

How the results depend on the processing

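With 2 samples per genotype, calls between genotypes depended on the tool and on the block. FDFT1, CYP51A1 and ACACA had low counts, and how reads were assigned for them is not known. DESeq2 called 7, 10 and 10 genes for hemizygous against wild type, for homozygous against wild type and for homozygous against hemizygous. With the replicate block, edgeR called 1 gene for hemizygous against wild type, 0 for homozygous against wild type and 1 for homozygous against hemizygous; DESeq2 with the replicate block called 23, 126 and 24 genes, and 5 members in homozygous against wild type. The block changed no other call. Leaving out 1 sample gave 0 to 2, 0 to 1 and 0 to 3 genes in those comparisons.

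For number 1 against number 2, 2 genes and 1 member were called without the hemizygous samples, 0 genes and 0 members without the wild-type samples, and 6252 genes without the homozygous samples, with a fatty acid median of 0.54. Leaving out 1 sample gave 1 to 6266 genes, 0 to 23 members and a fatty acid median of 0.37 to 0.54. In each such fit the lone sample of a genotype carries no weight and 1 residual degree of freedom is left. Calls rose from 3322 genes in the full fit to 6266 without homozygous 1 and 6254 without homozygous 2. They fell to between 1 and 1140 genes when a hemizygous or wild-type sample was left out. Why the calls rose in some of these fits and fell in others was not tested.

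Leaving out 1 sample also turned the sign of some genotype differences. For hemizygous against wild type the log2 difference ranged from -0.39 to 0.086 for MVK, -1.21 to 0.15 for CYP51A1, -0.54 to 0.28 for DHCR7, -1.32 to 1.27 for ACACA and -0.49 to 0.13 for FADS2. For homozygous against wild type it ranged from -1.10 to 0.050 for IDI1, -1.06 to 0.043 for INSIG1 and -2.62 to 0.73 for ACACA. For homozygous against hemizygous it ranged from -0.97 to 0.18 for HMGCS1, -1.03 to 0.24 for IDI1, -1.02 to 0.43 for CYP51A1, -1.02 to 0.13 for INSIG1, -0.86 to 0.11 for FASN and -2.06 to 0.19 for ACACA. Leaving out a sample of a compared genotype leaves that genotype with a single number, so genotype and number are mixed in that fit. The cause of the turned signs was not tested. Over all results and alternatives, 704 values kept their direction and side of the threshold or moved by less than the spread, 93 were no longer past the threshold, 4 were newly past it, 32 moved and 19 turned.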

Other observations

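Genes that use or spend the same precursors differed between the numbers in part, and none of them was called between genotypes in edgeR. Of 21 other measured genes of fatty acid synthesis and activation, 5 were called higher in number 1 and 2 lower (edgeR), where 12% of all genes were called higher and 8.5% lower, so the count of lower genes was near the share over all genes. ACSL3, which activates fatty acids on lipid droplets, had 212 and 158 CPM in homozygous 1 and 2, 338 and 169 CPM in hemizygous 1 and 2, and 316 and 167 CPM in wild type 1 and 2, a log2 difference of 0.79 ± 0.12 (edgeR adjusted p = 0.0126). ACSL4, which activates arachidonate, rose by 0.63 ± 0.09 (edgeR adjusted p = 0.0121), and ELOVL2, an elongase of polyunsaturated fatty acids, by 0.83 ± 0.19 (edgeR adjusted p = 0.0264). MLXIPL, the carbohydrate-responsive factor ChREBP that also acts on fatty acid genes, went the other way, with 8.44 and 16.0 CPM in homozygous 1 and 2, 6.83 and 16.3 CPM in hemizygous 1 and 2, and 7.44 and 18.9 CPM in wild type 1 and 2. Its log2 difference was -1.17 ± 0.12 (edgeR adjusted p = 0.0120), and all 3 number 1 samples lay below all number 2 samples.

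Counts in the next 4 lists stand beside 12% of all genes called higher in number 1, and with 1 or 2 genes each they say nothing about a list as a whole. Of 8 measured genes of the isoprenoid side branches, 2 were called higher in number 1: NUS1, of dolichol synthesis, by 0.36 ± 0.08 (edgeR adjusted p = 0.0225), and PGGT1B, a subunit of a prenyl transferase, by 0.40 ± 0.08 (edgeR adjusted p = 0.0202). Of 14 genes of sterol uptake, export and storage, 2 were called higher: NPC1, which moves cholesterol out of lysosomes, by 0.52 ± 0.12 (edgeR adjusted p = 0.0256), and LPCAT3, a phospholipid acyltransferase, by 0.40 ± 0.09 (edgeR adjusted p = 0.0269). Of 10 genes of fatty acid oxidation, 2 were called higher: CPT1A, which brings fatty acids into mitochondria, by 0.34 ± 0.09 (edgeR adjusted p = 0.0431), and ACADM, an acyl-CoA dehydrogenase, by 0.38 ± 0.08 (edgeR adjusted p = 0.0209). Of 11 measured genes of an amino acid stress list, 1 was called higher, SLC7A11, the cystine transporter, by 1.07 ± 0.30 (edgeR adjusted p = 0.0440), with 16.5 and 16.2 CPM in homozygous 1 and 2, 58.5 and 16.5 CPM in hemizygous 1 and 2, and 56.7 and 23.3 CPM in wild type 1 and 2.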
